A study of Solanum pimpinellifolium with 60 samples.

Results

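The 5 genes described here are MADS-box genes of the SEPALLATA (SEP) clade of tomato, taken by their identifiers from the count table: TM5 (Solyc05g015750), TM29 (Solyc02g089200), J2 (Solyc12g038510), EJ2 (Solyc03g114840) and LIN (Solyc04g005320). They are 5 of the 34725 genes of the table, which also holds other genes of the clade, and all 5 were among the 18901 genes that passed the filter on low counts. RNA levels in Solanum pimpinellifolium LA1589 came from 3′ Tag RNA-seq, in which reads start near the 3′ ends of transcripts. The wild type (WT) was compared with 3 nearly isogenic lines (NILs) made by backcrossing to LA1589: lc, which carries base changes 3′ of SlWUS, fas, which carries an inversion with a breakpoint in the SlCLV3 promoter, and lc/fas, which carries both alleles. Tissue of greenhouse plants was taken at 5 stages: the apical meristem of the sympodial shoot (SYM), floral and inflorescence meristems in 1 sample (F&IM), and whole floral buds at 2 dpi, 4 dpi and 6 dpi, where dpi counts days after a flower is initiated. Each of the 20 groups had 3 replicates, and each replicate pooled the dissected tissue of many plants. A NIL keeps some donor sequence around each allele, so the alleles and their flanks cannot be told apart.

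SEP proteins are MADS-domain transcription factors that join the other floral MADS proteins in multimers. In Arabidopsis they are needed in every whorl, and floral organs turn sepal-like or leaf-like as SEP genes are lost. In tomato the clade also acts in the inflorescence. J2 and EJ2 limit inflorescence branching, J2 is needed for the abscission zone of the flower stalk, EJ2 restrains sepal growth, and LIN acts with both in the maturation of the inflorescence meristem. TM5 is closest to Arabidopsis SEP3 and is needed for the identity of the inner floral organs, and TM29 is needed for normal flower and fruit development. The comparisons ask when each gene comes on and whether the lc and fas alleles change it.

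Totals per library ran from 2038899 to 9172182 counts in 59 libraries and came to 441291 in fas at 6 dpi, replicate 3, so results that rest on this library are given with and without it. Replicates of a group correlated with r between 0.91 and 0.989 over genes, on the log2(RPM + 1) scale, where RPM is reads per 1000000 counted in a library. SlYABBY2b, whose first intron holds a breakpoint of the fas inversion, was 2.16 lower in fas and 2.45 lower in lc/fas on the log2 scale over the stages (edgeR quasi-likelihood test, Benjamini-Hochberg adjusted p = 6.51e-12 and 5.62e-14). The stage labels were checked with petal, stamen and carpel identity genes. Their summed level was 40.5 to 65.6 RPM in the SYM, 51.0 to 83.8 RPM in the F&IM and 168 to 202 RPM at 2 dpi, then 1420 RPM or more at 4 dpi and 2230 RPM or more at 6 dpi, and none of these 4 markers was at 0 in any group. Up to 2 dpi the sum was mostly the AP3 homolog Solyc02g084630. Its wild-type means were 28.6, 55.9 and 164 RPM in the SYM, in the F&IM and at 2 dpi. TAG1, of stamen and carpel identity, stayed at 1.9 to 2.4 RPM over these stages.

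The SEP genes reached their high levels in a staggered order. All 5 rose from the SYM to the F&IM, but LIN was already at its highest level there, whereas J2 peaked at 2 dpi, EJ2 levelled off from 2 dpi onward, and TM29 and TM5 made most of their rise between the F&IM and 4 dpi. Because 3′ tags are not scaled by length and may differ in efficiency between genes, each gene is described against its own levels and the height of 2 genes is not compared. Stages also differ in tissue make-up, and the study proposes that growing organs may dilute meristem transcripts in whole buds. The meristem markers STM, SlWUS and SlCLV3 fell at the 3 steps after the F&IM, by a median log2 change of -0.63, -2.11 and -0.96. The part of tissue make-up in the SEP levels was not tested.

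LIN was at 2.58, 5.54 and 5.66 RPM in the 3 wild-type SYM libraries and at 74.6, 73.1 and 64.1 RPM in the F&IM. The groups did not overlap, and over all 4 genotypes each of the 12 F&IM libraries was above every SYM library. The rise over the genotypes was 10-fold (log2 fold change 3.32 ± 0.11 SE, edgeR adjusted p = 9.56e-36). LIN then fell at each later step, by 0.63, 0.34 and 0.34 on the log2 scale (adjusted p = 6.02e-08, 0.00205 and 0.00639). Within the genotypes the step from 2 to 4 dpi was -0.05 in WT (adjusted p = 0.91), -0.36 in lc (0.194), -0.42 in lc/fas (0.135) and -0.56 in fas (0.0265), where it passed, and the step from 4 to 6 dpi passed in none. In the wild type its 6 dpi level was 40.1% of the F&IM mean. In fas at 6 dpi, LIN was at 20.5, 22.9 and 4.53 RPM, where the last value is 2 counts in the library of low depth.

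J2 was nearly off in the wild-type SYM, with 2.94, 0.729 and 2.94 RPM (16, 5 and 13 counts). It reached 56.1, 54.7 and 37.0 RPM in the F&IM and 204, 178 and 211 RPM at 2 dpi. The rises over the genotypes were 11.2-fold at the first step (log2 3.49 ± 0.14 SE, adjusted p = 5.47e-30) and 4.39-fold at the second (log2 2.14 ± 0.11 SE, adjusted p = 1.24e-24). From 2 dpi it fell by 0.40 to 4 dpi and by a further 0.43 to 6 dpi on the log2 scale (adjusted p = 0.00199 and 0.00203). Inside single genotypes the estimates were all negative, but neither fall passed in any (edgeR adjusted p = 0.123 to 0.397 and 0.229 to 0.422). At 4 dpi 11 of 12 libraries lay below every 2 dpi library, and at 6 dpi all 12 lay below every 4 dpi library.

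EJ2, like J2 a homolog of Arabidopsis SEP4, shared the early rise and not the later fall. Its wild-type libraries held 3.31, 3.94 and 7.47 RPM in the SYM, 33.7, 33.1 and 34.6 RPM in the F&IM and 157, 158 and 162 RPM at 2 dpi. Over the genotypes it rose 5.28-fold and then 5.36-fold (adjusted p = 4.98e-28 and 1.74e-32). From 2 to 4 dpi its log2 change was 0.13 ± 0.08 SE (adjusted p = 0.222) and from 4 to 6 dpi -0.01 (adjusted p = 0.944), with wild-type libraries at 183, 182 and 192 RPM and then 183, 179 and 169 RPM. With DESeq2 in place of edgeR the step from 2 to 4 dpi passed the threshold, at a log2 change of 0.15.

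TM29 rose less than LIN, J2 and EJ2 to the F&IM and made its main rise to 2 dpi. Wild-type libraries were at 6.81, 6.56 and 9.28 RPM in the SYM, 35.3, 35.6 and 31.4 RPM in the F&IM, 405, 350 and 438 RPM at 2 dpi and 690, 831 and 764 RPM at 4 dpi. Consecutive stages did not overlap up to 4 dpi. Over the genotypes the rises were 3.60-fold, 13.7-fold and 1.69-fold (adjusted p = 4.33e-19, 3.78e-36 and 1.78e-08), and the step to 6 dpi did not pass the test (log2 0.04 ± 0.10 SE, adjusted p = 0.874). Inside single genotypes the step from 2 to 4 dpi passed in WT, lc and fas and not in lc/fas (log2 0.53, edgeR adjusted p = 0.119). At 6 dpi the wild-type libraries spread widely, at 456, 982 and 700 RPM.

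TM5 was the latest. In the wild type it was at 4.05, 3.79 and 3.17 RPM in the SYM and only 10.3, 8.32 and 12.6 RPM in the F&IM, before 161, 162 and 179 RPM at 2 dpi and 477, 452 and 452 RPM at 4 dpi. Over the genotypes it rose 2.43-fold, 18.8-fold and 2.45-fold at the first 3 steps (adjusted p = 7.52e-13, 2.03e-41 and 2.44e-19). Of the 12 F&IM libraries 11 were above every SYM library, and at the next 2 steps all 12 libraries were above every earlier one. From 4 to 6 dpi its log2 change was 0.05 ± 0.09 SE (adjusted p = 0.767).

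**Figure D1:**
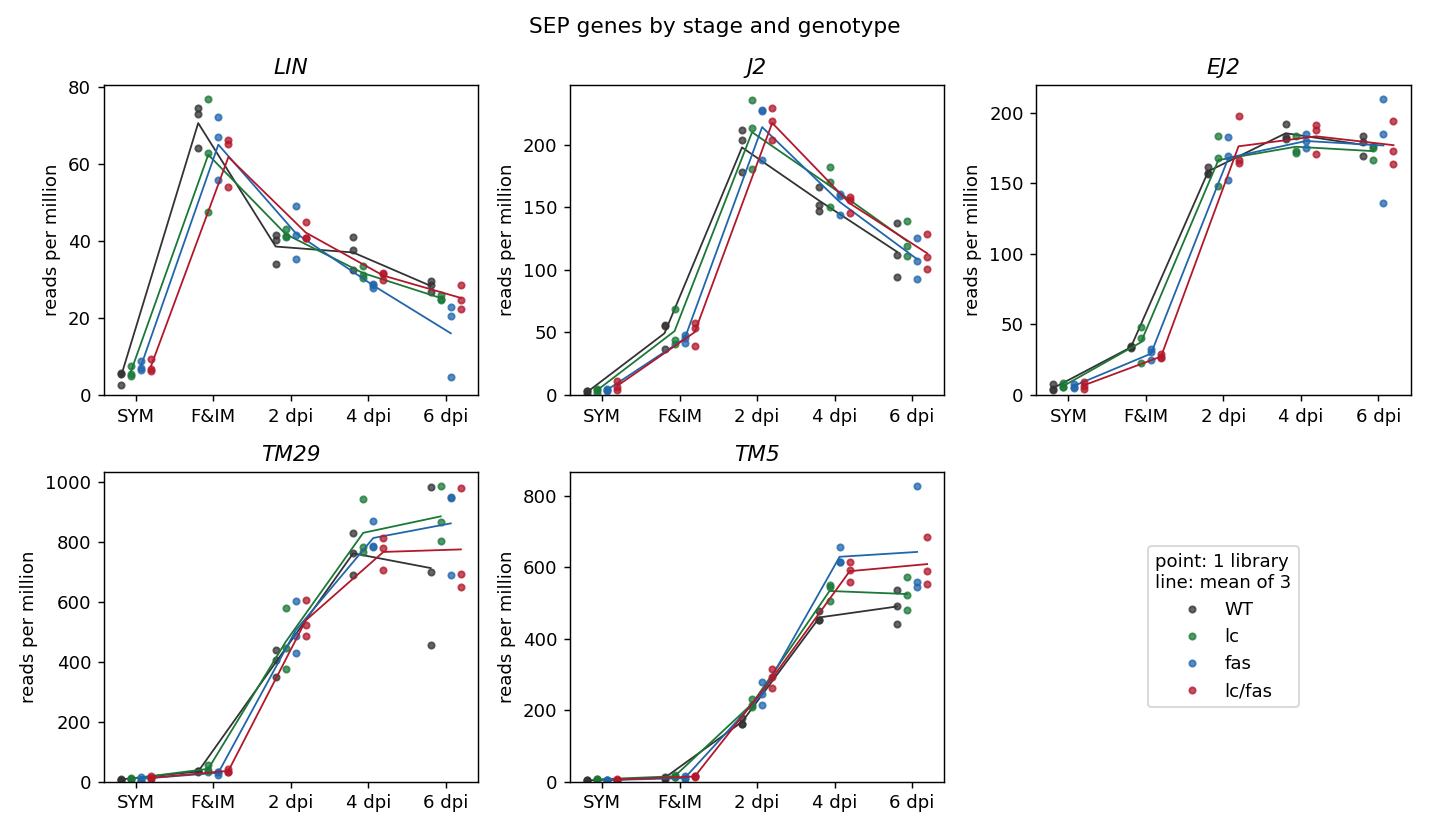
Levels of the 5 SEP genes by stage, 1 panel a gene, in RPM, with 1 point a library and lines through the means of 3 replicates, coloured by genotype. LIN is highest in the F&IM, J2 at 2 dpi, and TM5 and TM29 from 4 dpi, and the low fas point of LIN at 6 dpi is the library with 2 LIN counts.

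Members called at each step were read against all genes tested. At the step to the F&IM all 5 rose, where 15.9% of genes were called higher and 15.5% lower. At the step to 2 dpi 4 rose and 1 fell, against 20.2% higher and 19.6% lower. At the step to 4 dpi 2 rose and 2 fell, against 21.3% higher and 21.9% lower. At the step to 6 dpi none rose and 2 fell, against 15.1% higher and 9.78% lower. These calls were refitted without a collection or with another normalization, filter, tool or block. Of 400 such results for single genes, 399 kept their side of the threshold, the exception being EJ2 from 2 to 4 dpi with DESeq2. A collection here means the libraries of a genotype that share a replicate number. The labels do not say that these libraries were collected together.

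**Figure D2:**
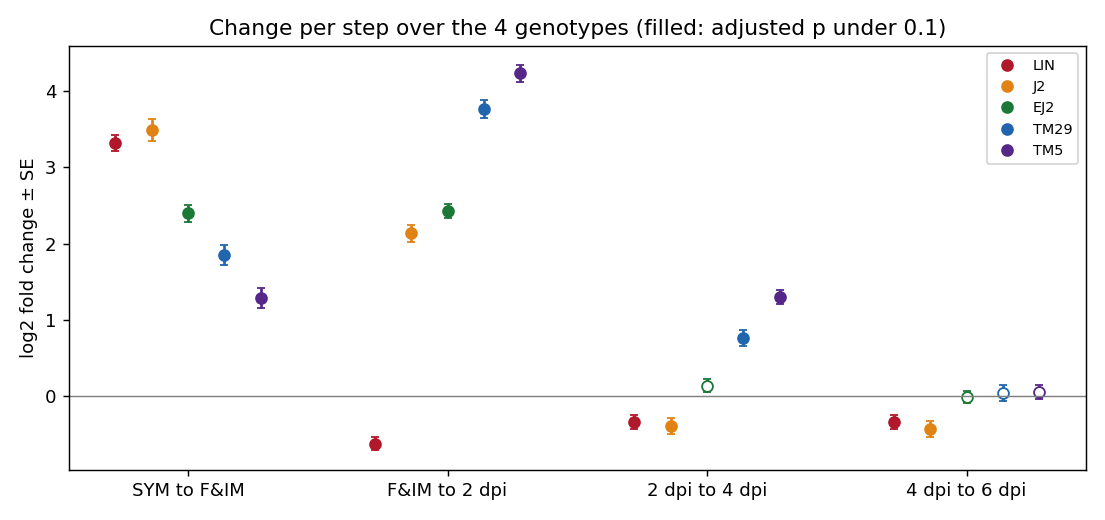
Log2 fold change ± SE of each SEP gene at the 4 steps, fitted over the 4 genotypes, with filled points for an adjusted p under 0.1. At the step from F&IM to 2 dpi the changes run from -0.63 for LIN to 4.24 for TM5.

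Onset was read by a fixed rule, the first step inside a genotype with an adjusted p under 0.1 and a log2 rise of at least 1. By this rule all 5 genes came on at the step to the F&IM in all 4 genotypes, where the rule was met by 2.62% of all genes in WT, 2.25% in lc, 1.89% in fas and 1.7% for lc/fas. The weakest of these calls was TM5 in fas, with SYM libraries at 4.39, 4.78 and 4.01 RPM and F&IM libraries at 8.91, 6.29 and 14.6 RPM. Its log2 rise was 1.09 ± 0.24 SE (adjusted p = 0.00138), and without the third fas collection it was 0.72 (adjusted p = 0.121). The largest fold was that of J2 in WT, 22.9-fold, followed by LIN in WT, 15-fold.

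Onset by the first rise hides the stagger, which shows in the stage at which a gene reached 50% of its own highest mean. This was the F&IM for LIN, 2 dpi for J2, EJ2 and TM29, and 4 dpi for TM5, in each of the 4 genotypes. In the wild-type F&IM, J2 was at 24.9% of its peak, EJ2 at 18.2%, TM29 at 4.47% and TM5 at 2.12%. At 2 dpi TM5 was at 34.1% in WT, 38.3% in fas, 40.8% in lc and, closest to the mark, 47.5% in lc/fas. At a mark of 10%, J2, EJ2 and LIN were past it by the F&IM and TM29 and TM5 first at 2 dpi, and in fas and lc/fas LIN was past it in the SYM.

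**Figure D3:**
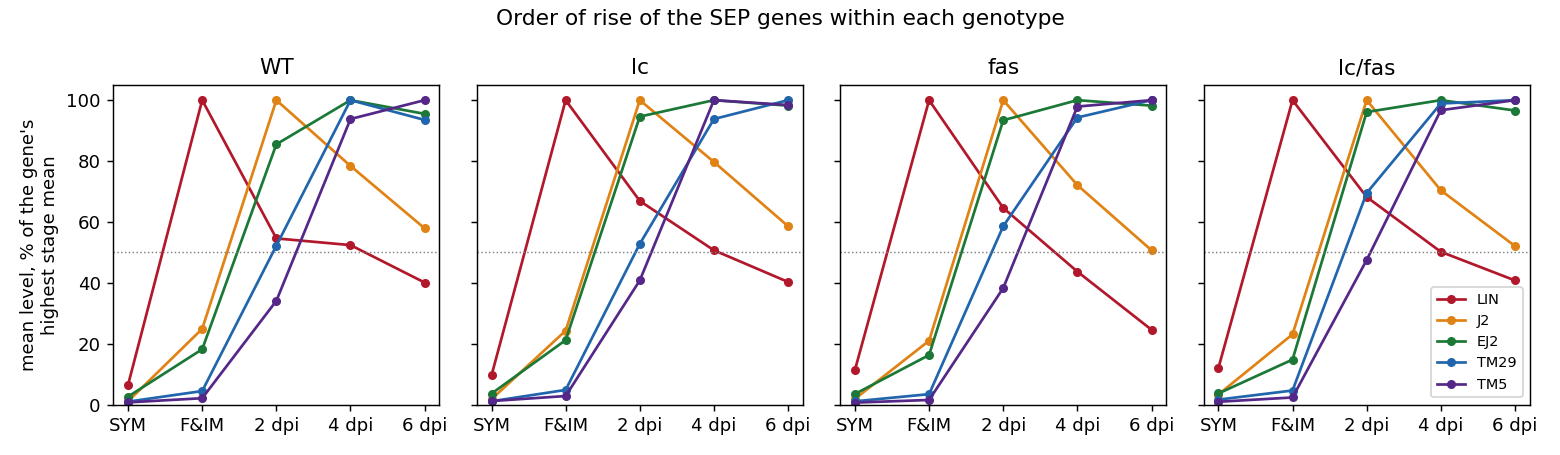
Mean level of each SEP gene as a percent of its own highest stage mean, 1 panel a genotype, with a dotted line at 50%. In all 4 panels LIN is at 100% in the F&IM, and TM5 is the only gene still under the line at 2 dpi.

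Whether 2 paralogs differed at a step was tested directly, on the log2 ratio of the 2 genes within each library (log2(RPM + 1), two-sided exact permutation test with stage labels exchanged inside each genotype, 12 libraries against 12, adjusted over 10 pairs and 4 steps). Of these 40 changes in ratio 34 passed. Pairs of other genes were not tested, so the count is not known to be particular to the SEP genes. Of all single genes 31.4%, 39.9%, 43.2% and 24.8% were called at the 4 steps by edgeR. The smallest p that the permutations can give is 1.25e-05. From the SYM to the F&IM, the J2/LIN ratio did not pass (log2 change 0.16, exact permutation p = 0.438, adjusted p = 0.494), and both genes rose more than the other 3. J2 outran EJ2, its close paralog, by 1.13 on the log2 scale (adjusted p = 2.17e-05, in 4 of 4 genotypes). From the F&IM to 2 dpi the TM5/LIN ratio rose 27.1-fold (adjusted p = 2.17e-05, in 4 of 4 genotypes).

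TM5 and TM29, the late pair, also differed from each other. The log2 TM5/TM29 ratio fell by 0.65 to the F&IM, then rose by 0.41 to 2 dpi and by 0.53 to 4 dpi (exact permutation test, adjusted p = 0.000613, 0.00139 and 2.17e-05, each in 4 of 4 genotypes). From 4 to 6 dpi it changed by 0.03 (adjusted p = 0.805). After 2 dpi J2 and LIN both fell, and the log2 J2/LIN ratio changed by -0.06 and 0.05 (adjusted p = 0.494 and 0.9). J2 fell against EJ2 by 0.53 and 0.41 at the last 2 steps (adjusted p = 2.17e-05 for both).

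The other floral MADS genes, listed from the study's homologs and from general knowledge, give the setting. Of 5 genes of the AP1/FUL clade, which acts in floral meristem identity, all 5 rose to the F&IM and 4 fell from 2 to 4 dpi. The AP1 homolog Solyc05g056620 rose by 3.18 and then fell by 0.82 on the log2 scale. Of 4 B-class genes, which specify petals and stamens, 1 rose and 1 fell at the first step, 3 rose at the second and all 4 rose at the third, with a log2 rise of 6.03 for the AP3 homolog Solyc04g081000 and of 0.92 for the AP3 homolog Solyc02g084630, which had risen by 1.56 from the F&IM to 2 dpi. Of 4 AGAMOUS-clade genes 3 passed the filter, and 2 rose from 2 to 4 dpi, among them TAG1, of stamen and carpel identity, by 5.33. Of 2 further genes of the SEP and AGL6 clades, both rose to the F&IM and 1 rose to 2 dpi.

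Likeness of pattern was measured as Pearson's r of log2(mean RPM + 1) over the 20 groups, which share libraries between genes, among 14472 genes whose mean reached 5 RPM. TM5 and TM29 were each other's nearest gene (r = 0.993). EJ2 was nearest to Solyc01g093960 (r = 0.998), which held 4.48, 48.5, 372, 392 and 303 RPM over the 5 wild-type stages. For J2 the nearest was Solyc10g085740 (r = 0.987). LIN was nearest to Solyc06g035530 (r = 0.981), followed by the AP1 homolog Solyc05g056620 (r = 0.978). Between members r ran from 0.33 for TM5 with LIN to 0.993, and over the 16 groups without the SYM TM5 and LIN had r = -0.891.

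TM29 lies next to the AP1 homolog Solyc02g089210 and EJ2 next to the FUL homolog Solyc03g114830 in identifier order, and whether counting used strand is not given in the sources used here. Both neighbours were highest in the F&IM in the wild type, at 82.2 and 123 RPM, and lower at 4 dpi, at 24.8 and 50.4 RPM, when TM29 and EJ2 were high. The other neighbours of TM29, J2 and TM5 held at most 2.52 RPM at any wild-type stage, and that of EJ2, Solyc03g114850, held 37.6 to 63.9 RPM. Next to LIN, Solyc04g005310 held 38.3 to 74.0 RPM and Solyc04g005330 held 204 to 249 RPM over the wild-type stages.

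Of the 5 genes, TM5 alone passed the test of a genotype effect over the stages (3 terms, edgeR adjusted p = 0.00138), where 3.23% of all genes were called. The adjusted p was 0.386 for TM29, 0.719 for J2, 0.867 for LIN and 0.948 for EJ2. TM5 was higher in fas (log2 0.33 ± 0.09 SE, 1.26-fold, adjusted p = 0.0373) and in lc/fas (log2 0.49 ± 0.09 SE, 1.41-fold, adjusted p = 0.00044), where 0.979% and 0.831% of all genes were called higher. In lc the estimate was as large as in fas, 0.33 ± 0.09 SE, but did not pass (adjusted p = 0.133), where 0.164% of genes were called higher. These averages cover unlike stage values. From the SYM to 6 dpi the log2 estimates of TM5 were 0.81, 0.54, 0.36, 0.22 and 0.10 in lc. In fas they were 0.22, -0.16, 0.53, 0.42 and 0.35, and no single stage passed in either line. TM5 was above all 3 wild-type libraries of the same stage in 14 of 15 lc/fas, 13 of 15 lc and 12 of 15 fas libraries. For the other 4 genes this held in 3 to 8 of the 15 libraries of a NIL. Below all 3 wild-type libraries were LIN in 7 lc, 7 fas and 6 lc/fas libraries and EJ2 in 5, 7 and 5. These counts were not made over all genes, and the 15 libraries fall into 3 collections by replicate number, so the counts are a description only. Among the other floral MADS genes, the AP1 homolog Solyc02g089210 was also higher over the stages, by 0.31 in fas and 0.42 in lc/fas (adjusted p = 0.0347 and 0.00176), and TAG1 by 0.49 in fas (adjusted p = 0.0611), while none of the 4 B-class genes was called.

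The TM5 calls rest on the spread between libraries taken as independent. Without the third fas collection the fas value was 0.21 (adjusted p = 0.201), without the first wild-type collection 0.31 (adjusted p = 0.150), and without the fas 6 dpi library of low depth 0.28 (adjusted p = 0.0938). With limma-voom and collection as a random block the fas value did not pass (0.36, adjusted p = 0.210), and the lc value was 0.24 (adjusted p = 0.999). The lc value passed with the replicate number as a block (adjusted p = 0.0391), with DESeq2 (0.0542), without that library (0.0936), and without wild-type collection 3 (0.0677), fas collection 2 (0.0492) or fas collection 3 (0.0777), and was furthest from it, besides limma-voom, with the floral stages alone (0.29, 0.634) and with summed counts (0.30, 1). The lc/fas call held without any of the 12 collections (0.46 to 0.56). With counts summed over the stages of each collection, 12 sums in all, no SEP gene passed, and TM5 in lc/fas was 0.48 higher at an unadjusted p of 0.00568. For lc/fas the replicate numbers were taken as pairing the samples, from correlated deviations and not from the labels, and the main test leaves this out. The block moved the number of all genes called in lc/fas from 311 to 602. It was fitted to all genotypes, also to lc and fas, for which the numbers were not taken as pairing.

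The other SEP genes showed smaller shifts. TM29 was 0.27 ± 0.10 SE higher in lc and 0.24 ± 0.10 SE higher in lc/fas, neither past the threshold (adjusted p = 0.423 and 0.367). EJ2 had the smallest estimates, from -0.01 in fas (95% confidence interval -0.17 to 0.15) to 0.06 in lc (-0.10 to 0.22). LIN was between -0.12 and -0.04 and J2 between 0.03 and 0.18 in the 3 NILs.

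**Figure D4:**
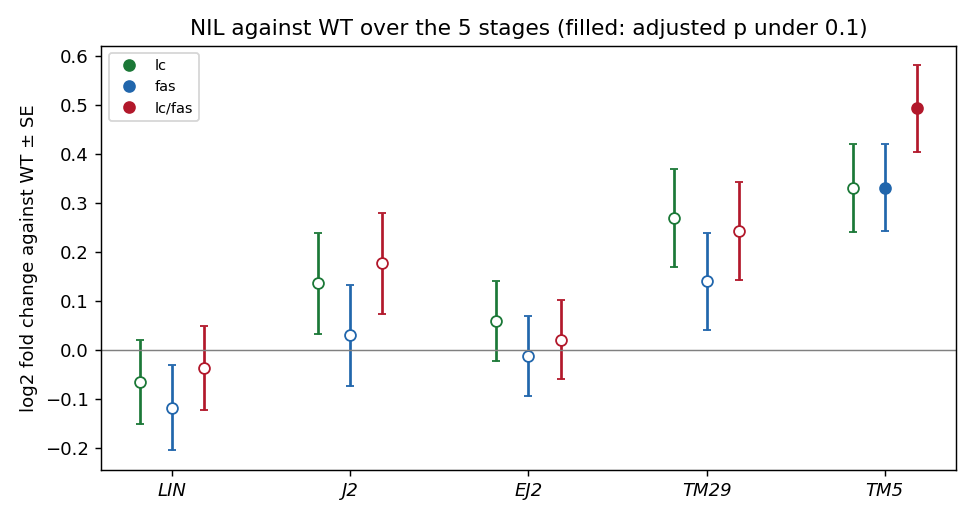
Log2 fold change ± SE of each SEP gene in lc, fas and lc/fas against WT over the 5 stages, with filled points for an adjusted p under 0.1. The filled points are TM5 in fas and TM5 in lc/fas.

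The paralogs were compared with each other across genotypes in the same way (two-sided exact permutation test with genotype labels exchanged inside each stage, 15 libraries against 15, adjusted over 10 pairs and 3 NILs). The 15 libraries of a genotype fall into 3 collections by replicate number. The test treats the libraries as independent, so its p-values are too small where libraries of a collection deviate together. Deviations from group means correlated over 0.1 in 39 of 48 same-numbered pairs at consecutive stages, and exchanging 3 whole collections against 3 could not give a p under 0.1. Of 30 changes in ratio 4 passed, all with TM5, and pairs of other genes were not tested. The log2 TM5/EJ2 ratio was 0.44 higher in lc/fas than in WT (adjusted p = 0.00546, in 5 of 5 stages) and 0.29 higher in lc (adjusted p = 0.0186, in 5 of 5 stages). The log2 TM5/LIN ratio was 0.45 higher in lc/fas (adjusted p = 0.00794, in 4 of 5 stages) and 0.39 higher in lc (adjusted p = 0.0186, in 5 of 5 stages). TM5/TM29 was 0.22 higher in lc/fas at an adjusted p of 0.128, so a different response of TM5 and TM29 was not shown. The count of 4 ran from 1, without the second wild-type collection, to 8, without the first, and was 2 without the third lc collection.

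Within single stages TM5 passed at 2 dpi, in lc/fas. Against 161, 162 and 179 RPM in WT, TM5 was at 232, 209 and 214 RPM in lc, 246, 215 and 279 RPM in fas, and 292, 262 and 316 RPM in lc/fas. All 9 NIL libraries were above the 3 wild-type libraries. In lc/fas the difference passed the test (1.71-fold, log2 0.77 ± 0.16 SE, adjusted p = 0.0433), where 0.0212% of genes were called higher. In fas it was 0.53 ± 0.16 SE and in lc 0.36 ± 0.16 SE (both with an adjusted p of 1). The lc/fas call was lost without the first or second wild-type collection (adjusted p = 0.403 and 0.455) and without lc/fas collection 1 or 3 (0.254 and 0.552), at log2 values of 0.69 to 0.78. The summed petal, stamen and carpel markers at 2 dpi were 182 to 193 RPM in WT and 191 to 198 RPM in lc/fas. Most of this sum was the AP3 homolog Solyc02g084630, at a mean of 164 RPM in both. Means in WT and lc/fas were 14.9 ± 2.99 SD and 19.6 ± 9.15 SD RPM for the AP3 homolog Solyc04g081000. They were 5.26 ± 1.99 SD and 7.51 ± 2.59 SD RPM for the B-class gene Solyc08g067230, and 2.4 and 2.7 RPM for TAG1. The summed meristem markers (STM, SlWUS and SlCLV3) did not overlap, at 416 to 432 RPM in WT and 478 to 520 RPM in lc/fas. Most of this sum was STM, at means of 379 RPM in WT and 456 RPM in lc/fas. SlWUS was at a mean of 26.2 RPM in both, and SlCLV3 at 19.8 and 23.4 RPM. The part of these markers in the TM5 difference was not tested. In these bulk samples, more cells that express a gene and more RNA per cell cannot be told apart.

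J2 was the other called gene within a stage, in the SYM. Against 2.94, 0.729 and 2.94 RPM in WT, it was at 11.1, 4.05 and 6.55 RPM in lc/fas (52, 22 and 38 counts), with no overlap. The difference was 3.35-fold (log2 1.75 ± 0.33 SE, adjusted p = 0.00383), where 0.106% of genes were called higher. J2 was at 5.08, 3.98 and 3.15 RPM in fas and 4.24, 5.11 and 1.84 RPM in lc, with log2 differences of 0.99 and 0.83 that did not pass (adjusted p = 0.618 and 0.497). All these levels were far under those of the F&IM. The call was lost without the second wild-type collection, which holds the library with 5 counts (1.23, adjusted p = 0.196), without the first lc/fas collection (1.33, adjusted p = 0.320), and in a fit on the 12 SYM libraries alone (1.74, adjusted p = 0.526).

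Other flower-related genes moved in the same SYM samples. Of the 5 AP1/FUL genes 3 were called higher in lc/fas, among them Solyc02g089210 by 1.01 and Solyc05g056620 by 0.87 on the log2 scale. None of the 4 petal, stamen and carpel markers was called, and their sum was 47.6 to 60.8 RPM in lc/fas and 40.5 to 44.8 RPM in WT. TAG1 and Solyc04g081000 among them hardly differed between the wild-type SYM (1.88 and 7.55 RPM) and F&IM (2.10 and 7.86 RPM). They say little about floral meristem tissue. Of 4 inflorescence and floral meristem identity genes none was called, at a median log2 difference of 0.77. Their sum was 847 to 889 RPM in lc/fas and 669 to 862 RPM in WT. Among them S (Solyc02g077390) was at means of 13.5 and 5.95 RPM, against 40.8 RPM in the wild-type F&IM. The other 4 SEP genes had log2 estimates of 0.46 to 0.74 in these samples, none past the threshold (adjusted p = 0.508 to 0.613). SlWUS, which maintains stem cells, was 0.945 higher and SlCLV3, which restrains them, 0.96 lower (adjusted p = 0.00781 and 0.00294). The part of these genes, or of floral tissue, in the J2 difference was not tested.

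**Figure D5:**
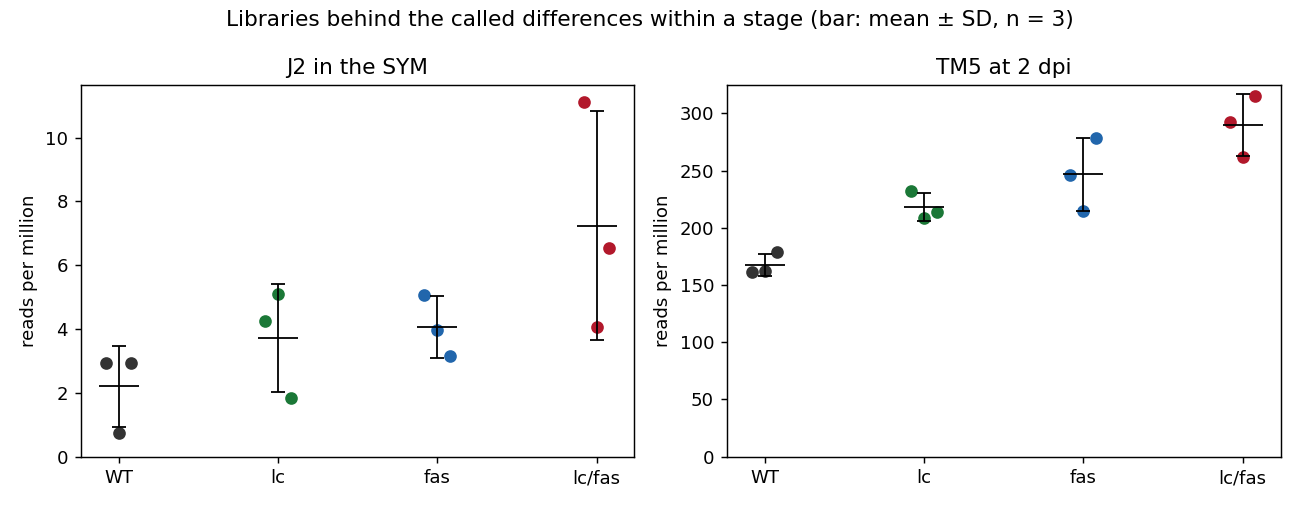
RPM of J2 in the SYM and of TM5 at 2 dpi, with 1 point a library and bars for the mean ± SD of 3 replicates. The lc/fas points lie above all wild-type points in both panels.

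Over the 15 comparisons of a NIL with WT inside a stage, these 2 were the SEP results called among 75, and 19 of the 75 (25.3%) had an unadjusted p under 0.05, against 4.71% of all gene tests in these comparisons. Most of the 19 were of TM5, those of J2 and TM29 were all in the SYM, and EJ2 had none. Those of LIN were in the SYM in fas and lc/fas (log2 0.70 and 0.65) and in fas at 4 and 6 dpi (-0.41 and -0.53). The pooled share is thus no measure of the 5 genes as a set. The 5 genes and the 3 NILs share libraries, so the 75 are not independent. The share of all genes called was 0.00529% to 0.153% in 14 of these comparisons and 3.01% in fas at 6 dpi, which holds the library of low depth. LIN in fas at 6 dpi was 0.53 lower (log2, adjusted p = 0.132), or 0.40 lower without the library of low depth (adjusted p = 0.211), and all 3 fas libraries were below all wild-type libraries, which were at 28.6, 26.8 and 29.6 RPM. Without the second wild-type collection 3 SEP genes passed in fas at 6 dpi, namely LIN at -0.50 (adjusted p = 0.0825), TM29 at 0.61 (0.0614) and TM5 at 0.43 (0.0913), but 30.5% of all genes were then called. TM29 then also passed in lc, at 0.64 (0.0962), where 10.8% of all genes were called.

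No SEP gene passed the test of a genotype by stage interaction, taken at an unadjusted p under 0.001, where 0.0265% of genes passed. Unadjusted p was 0.0172 for TM5, 0.0198 for J2 and 0.0358 for LIN, 0.462 for EJ2 and 0.467 for TM29, with adjusted p of 1 for all 5. None passed the test of a departure in lc/fas from the sum of the single NILs (edgeR, lc by fas interaction, 0.164% of genes called). The nearest was TM5, at -0.17 ± 0.13 SE (adjusted p = 0.843). None passed between fas and lc over the stages, where 1.79% of genes did, and the TM5 difference there had a 95% confidence interval of -0.22 to 0.22. This interval is for the average over the stages and not for single stages.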

How the data were processed

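3′ Tag RNA-seq libraries of 4 genotypes at 5 stages, with 3 replicates each, were analysed. Per the study's methods, reads were trimmed (fqtrim) and mapped to the tomato genome release ITAG2.4 (Rsubread), and the authors deposited whole read counts per gene. DESeq2 is named in the submitters' notes, with no version. For strand and multi-mapping settings nothing is stated in those sources. A line without a gene name holds, in each of the 60 libraries, how many genes reached 3 counts. It was left out of totals and tests and would have been at most 3.01% of a library.

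The main test was the robust quasi-likelihood F test of edgeR 4.0.16 (R 4.3.3), after filterByExpr by group and TMM scaling. Models held genotype plus stage, their interaction, or the 20 groups, always over all 60 libraries. Benjamini-Hochberg adjustment covered all 18901 genes, with calls at an adjusted p under 0.1. For the interaction the study's cutoff, an unadjusted p of 0.001, was kept. RPM is counts per 1000000 counts, and ratios of paralogs used log2(RPM + 1). How many libraries lay above or below those of another group was counted for the members and not for all genes. Counting PCR-amplified tags gives no count of molecules, and the depth of 441291 to 9172182 counts limits the SYM values, where members had 5 to 91 counts.

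Replicate numbers were checked by correlating deviations from group means. All 15 same-numbered pairs of lc/fas and WT were over 0.1 (0.15 to 0.80), against 12 of 15 for fas and 8 of 15 for lc, so the numbers were taken as pairing for lc/fas only. The closest replicates differed by 2.79 times counting noise, so none was counted as a duplicate. Alternatives were total counts or DESeq2 size factors for scaling, DESeq2 1.42.0 itself, leaving the filter out (31952 genes), a filter of 10 counts in 50% of libraries (16623 genes), the replicate block, limma-voom (limma 3.58.1) with a random block per collection (the libraries of a genotype that share a replicate number), sums per collection, floral stages or 1 stage alone, an adjusted p under 0.05, a pseudocount of 0.1, and leaving out collections or the library of low depth. The test of the SYM against the floral stages was added after seeing the data. On simulated counts over 18901 genes, the fit of lc/fas against WT over stages recovered 94% of 100 genes changed by 1 and 73% of 100 changed by 0.5 on the log2 scale. Of the calls in that simulation 9.24% were of unchanged genes. The simulated libraries were drawn independently, without deviations shared inside a collection, so both shares may be worse in the real data.

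The members, the lists, most of which come from general knowledge, and the naming rule (all members, up to 4 genes a list, next genes by identifier, the most alike genes) were chosen with earlier results of these data known.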

Additional observations from a re-analysis of the deposited data

Results flagged for a closer look

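The J2 difference between lc/fas and WT in the SYM was set against that in the 4 floral stages in a contrast built after J2 was seen to pass in the SYM alone, so it restates that observation and is no independent evidence. The genotype by stage test for J2 did not pass (unadjusted p = 0.0198, adjusted p = 1). The SYM effect minus the mean effect of the floral stages was 1.71 ± 0.34 SE on the log2 scale (edgeR quasi-likelihood test over 18901 genes, adjusted p = 0.0692). J2 in the SYM was above all 3 wild-type libraries in 3 of 3 lc/fas libraries. Leaving out single collections gave 1.16 to 2.03 with adjusted p from 0.00561 to 1, and 4 of those 12 fits passed the threshold. The value was lowest without the second wild-type collection (1.16, adjusted p = 0.996), followed by the first lc/fas collection (1.33, adjusted p = 1). With the replicate number as a block it was 1.72 (adjusted p = 0.0183). The same difference was 1.03 for fas and 0.74 for lc, neither past the threshold (adjusted p = 1 and 0.905).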

How the results depend on the processing

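No called result of a SEP gene reversed. Of 5580 results of single genes or ratios 5496 kept their side of the threshold, with 41 losing the call and 43 gaining it. Direction is not counted here for results that passed in neither fit. Members called in lc over the stages went from 0 to 1 with DESeq2, with the replicate block and without the fas 6 dpi library of low depth. In fas they went from 1 to 0 with limma-voom and a random collection block (TM5 0.36, adjusted p = 0.210) and with counts summed per collection, which also took lc/fas and the genotype effect from 1 to 0. Within stages, fas went from 0 to 1 with the replicate block and with the filter of 10 counts (LIN at 6 dpi), and lc/fas from 2 to 1 with the libraries of the stage alone. The number of gene and genotype pairs at the set share of their peak by the F&IM went from 4 at 50% to 12 at 10%. Leaving out single collections gave 0 to 1 members in lc and 0 to 1 in fas over the stages, 0 to 1, 0 to 3 and 0 to 2 within stages for lc, fas and lc/fas, and 1 to 8 ratios across genotypes. The causes of these changes were not tested.

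The replicate block changed 8 of 225 calls, all gains. It was fitted to all genotypes, though the numbers were taken as pairing for lc/fas only. Of all genes, those called over the stages numbered 61 (lc), 419 (fas) and 311 (lc/fas), and 210, 1150 and 602 with the replicate block, 18, 71 and 56 with limma-voom, 30, 129 and 112 in the floral stages alone, and 4, 8 and 6 with summed counts. Depth limits the SYM, where J2 had 5 to 52 counts.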
